A study of Homo sapiens with 12 samples.

Results

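The 35 genes described here belong to the integrated stress response and to the amino acid programme that it controls. They were chosen by name and found by gene symbol, and all 35 were present among the 26485 gene symbols counted in each library. The members fell into 7 roles, namely 2 kinases of eIF2alpha, 7 transcription factors, 5 feedback and growth brakes, 6 serine and one-carbon enzymes, 6 enzymes of asparagine, alanine, proline and transsulfuration, 6 amino acid transporters and 3 other targets. The study asked how inhibition of AP-1 or of its upstream kinase JNK changes transcription in a lung cancer line and in a non-cancerous bronchial line. Messenger RNA was sequenced from A549, a lung adenocarcinoma cell line, and from BEAS-2B (B2B), an immortalised bronchial epithelial cell line, both of wild-type genotype per the labels. Each line was labelled as not treated (NT), was given the AP-1 inhibitor SR11302 at 10 µM for 72 h, or was given the JNK inhibitor SP600125 at 50 µM for 72 h. Each of the 6 groups (A549_NT, A549_SR11302, A549_SP600125, B2B_NT, B2B_SR11302 and B2B_SP600125) held 2 libraries, 12 in all. Both inhibitors were dissolved in DMSO, and the study describes its comparison cells as given DMSO, whereas the labels give the NT cells no treatment. The labels do not say whether replicates were separate cultures, so that p-values measure only the spread between these libraries, which may be technical. Each line is 1 line grown as bulk culture, in which fewer cells of a type and less RNA per cell cannot be told apart.

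In the integrated stress response, kinases that sense amino acid shortage, misfolded protein or other stress phosphorylate the translation factor eIF2alpha, which slows general protein synthesis and favours translation of the transcription factor ATF4. ATF4 with its partners then raises genes for amino acid synthesis, uptake and tRNA charging, while CHOP, TRIB3 and PPP1R15A shape or end the response. Because ATF4 is largely controlled at translation and by protein stability, its mRNA is only part of its regulation, and protein was not measured here.

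The libraries held between 13969766 and 24917854 reads assigned to genes. Reads falling in no annotated feature made up 23.8% to 25.9% of those tallied in the 4 NT libraries and 14.6% to 20.1% in the 8 treated ones, a difference that moved with treatment and whose part in the results was not tested. Levels are given as CPM, the usual depth-scaled read count, with each library's total adjusted by the trimmed mean of M values (TMM). A549 libraries carried the simple epithelial keratins and EPCAM but near-zero alveolar markers, with NAPSA, SFTPB, SFTPC and NKX2-1 summing to between 0.971 and 1.59 CPM. In B2B the same alveolar markers summed to between 1.89 and 4.97 CPM. The keratins KRT7, KRT8 and KRT18 were read in B2B as well, at 187 CPM or above, though lower than in A549. The epithelial genes CDH1 and EPCAM, however, were at most 3.38 and 2.55 CPM in B2B, against at least 97 and 23.4 in A549. Of the mesenchymal markers, CDH2 was at 172 CPM or above in B2B against at most 74.5 in A549. COL1A2 was at 14.6 CPM or above in B2B against at most 0.345, and VIM was high in both lines, at 745 CPM or above. B2B libraries had the basal markers KRT5, KRT14, KRT15 and TP63 summing to at most 0.383 CPM, against between 2.23 and 5.17 in A549. In B2B, however, KRT17 was present at 38.9 CPM or above, and SPARC stood at 1010 CPM or above against at most 36 in A549. Of 5 markers of other cell types, CD3E was at 0 in all libraries and PTPRC was at most 0.37 CPM, while the endothelial gene PECAM1 was at most 0.212 CPM outside SP600125 and between 3.59 and 7.08 CPM in the 4 libraries given it. The 5, of which the lysosomal gene CD68 gave most outside SP600125, summed to between 44.1 and 50.1 CPM in A549_NT and A549_SR11302, 14.9 and 15.5 in A549_SP600125, 12 and 12.3 in B2B_NT, 20.9 and 21.2 in B2B_SR11302, and 11.8 and 18.5 in B2B_SP600125. Genes typical of the other line also differed between the replicates of each NT group. ALDH1A1, at 7740 CPM or more in A549, stood at 46.7 CPM in B2B_NT replicate 2 against 1.44 in replicate 1. SPARC stood at 7.06 CPM in A549_NT replicate 2 against 0.333 in replicate 1. In the treated A549 libraries SPARC was higher still, at 27.8 and 36 CPM with SR11302 and 9.16 and 8.13 with SP600125. The part of these markers in the results was not tested.

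In 1 further group the 2 libraries differed in the stress genes themselves, and it cannot be told which of them departs. In B2B_SP600125, replicate 2 was higher than replicate 1 in 33 of the 35 members, with a median log2 ratio of 0.40 against 0.00 over all genes tested. The difference exceeded 0.5 on the log2 scale for 15 members, against 9.5% of all genes. Asparagine synthetase illustrates it, at 72.5 and 168 CPM in the 2 libraries. In A549_SR11302 the libraries also differed by over 0.5 in 7 members (17.5% of all genes), though with no common direction, replicate 2 being the higher in 15 of 35. In the other 4 groups at most 1 member differed by that much.

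**Figure D1:**
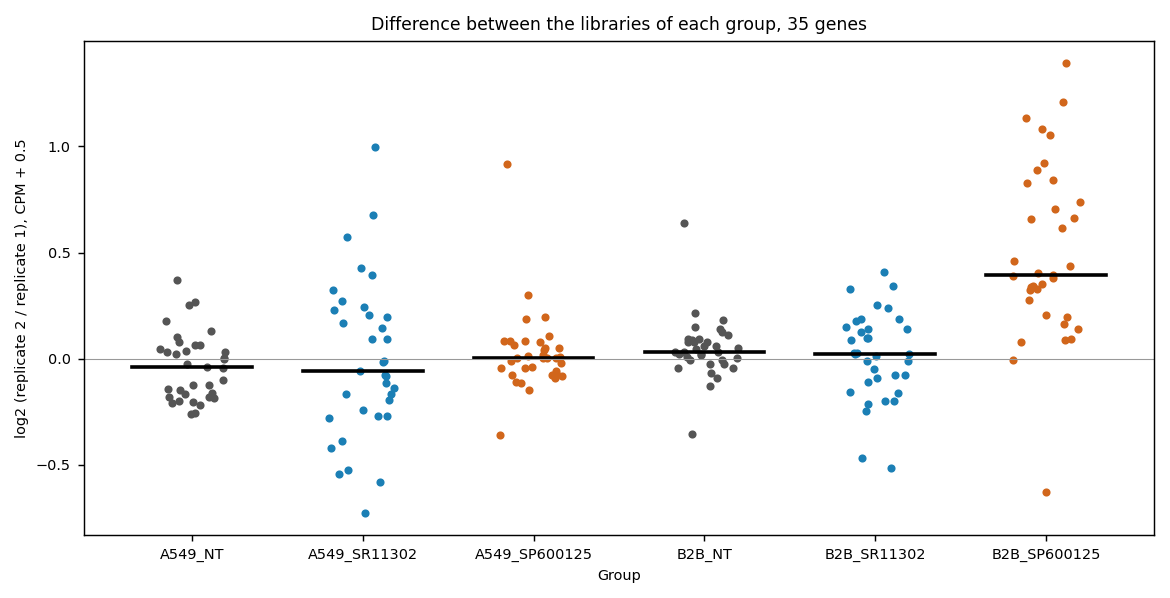
Difference between replicate 2 and replicate 1 of each group (y axis, log2 ratio of CPM after adding 0.5; x axis, group), 1 point for each of the 35 genes and a black line at their median. The points of B2B_SP600125 lie almost all above 0 with a median of 0.40, whereas those of the other groups scatter around 0.

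Stress-response promoters of this kind are known to carry C/EBP-ATF response elements, at which ATF4 and a C/EBP partner bind, and whose core reads TGATGNAA. These 8 letters were searched on both strands in the RefSeq promoters (250 bases before to 50 after each start site, GRCh38.p14), and no other motif was searched. They occurred at 1270 of 35116 start sites (3.62%). By symbol, 28 of the 35 members had an entry, without PSPH, SHMT2, NUPR1, ALDH1L2, PYCR1, EIF4EBP1 and GPT2. The letters stood at 8 of their 45 start sites (17.8%), in ASNS, ATF3, CEBPG, CHAC1, SLC1A4, SLC1A5, SLC3A2 and SLC7A1. A match is a string of letters and was not tested for binding. The stretches before the start site of ASNS, CHAC1, CEBPG and ATF3 are printed because these members carried some of the largest or most divergent changes below, and that of SLC1A5 because it holds the letters with no change from NT called in the TMM-scaled fit. Capitals mark the match.
ASNS: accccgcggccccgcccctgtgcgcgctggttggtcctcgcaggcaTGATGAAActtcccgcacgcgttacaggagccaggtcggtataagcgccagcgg
CHAC1: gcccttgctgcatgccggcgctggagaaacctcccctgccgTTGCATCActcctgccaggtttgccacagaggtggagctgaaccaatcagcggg
CEBPG: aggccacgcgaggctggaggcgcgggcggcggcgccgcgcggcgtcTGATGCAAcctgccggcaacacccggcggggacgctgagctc
ATF3: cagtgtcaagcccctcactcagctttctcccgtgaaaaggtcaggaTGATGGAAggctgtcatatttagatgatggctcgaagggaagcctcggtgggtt
SLC1A5: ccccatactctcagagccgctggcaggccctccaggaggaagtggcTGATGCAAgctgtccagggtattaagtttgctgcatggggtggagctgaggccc
The match lay 60 bases before the start site in ASNS (chr7:97872423-97872522, minus strand) and 34 bases before it in CEBPG (chr19:33374025-33374112, plus strand), both reading along the gene. It lay 201 bases before the start in CHAC1 (chr15:40953221-40953315, plus strand), where it reads against the gene. In ATF3 (chr1:212565170-212565269, plus strand) and SLC1A5 (chr19:46784858-46784957, minus strand) it lay 183 and 89 bases before the start, reading along the gene. Each distance is to an annotated RefSeq start site, and a gene can have several. The stretches of ASNS, CHAC1, CEBPG and SLC1A5 lie inside the span that GENCODE gives the gene, that of SLC1A5 the farthest inside (chr19:46774883-46788594). Which start site the counted reads came from was not tested.

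A gene is called here when its Benjamini-Hochberg adjusted p from edgeR's quasi-likelihood test, fitted on all 16373 genes that passed the count filter, was under 0.05 with a log2 fold change of at least 0.5 in size. All 35 members passed the filter. Values after ± are standard errors of the log2 fold change, and every adjusted p below comes from that fit, with 2 libraries a group. Under SP600125 more members changed than not in both lines. In A549, 18 of 35 rose (51.4%, against 23.9% of all genes tested) and 5 fell (14.3%, against 25.0%). In B2B, 18 rose (51.4%, against 21.2%) and 4 fell (11.4%, against 22.6%). Without B2B_SP600125 replicate 2 the median log2 fold change of the members in B2B was 0.32, and without replicate 1 it was 0.65. With all libraries the median log2 fold change of the members was 0.55 in A549 and 0.60 in B2B, against 0.02 and 0.01 over all genes. SR11302 moved fewer. In A549, 8 rose (22.9%, against 14.8%) and 3 fell (8.57%, against 13.0%), with a median of 0.17. These were 9 and 4 without A549_SR11302 replicate 1, 7 and 3 without replicate 2, and 6 and 1 without A549_NT replicate 1. In B2B, 2 rose (5.71%, against 11.4%) and 6 fell (17.1%, against 11.1%), with a median of -0.20. All of these counts over members are descriptions of a list picked with earlier results known. The 2 inhibitor comparisons of a line share their NT libraries and are set side by side without a test of likeness.

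**Figure D2:**
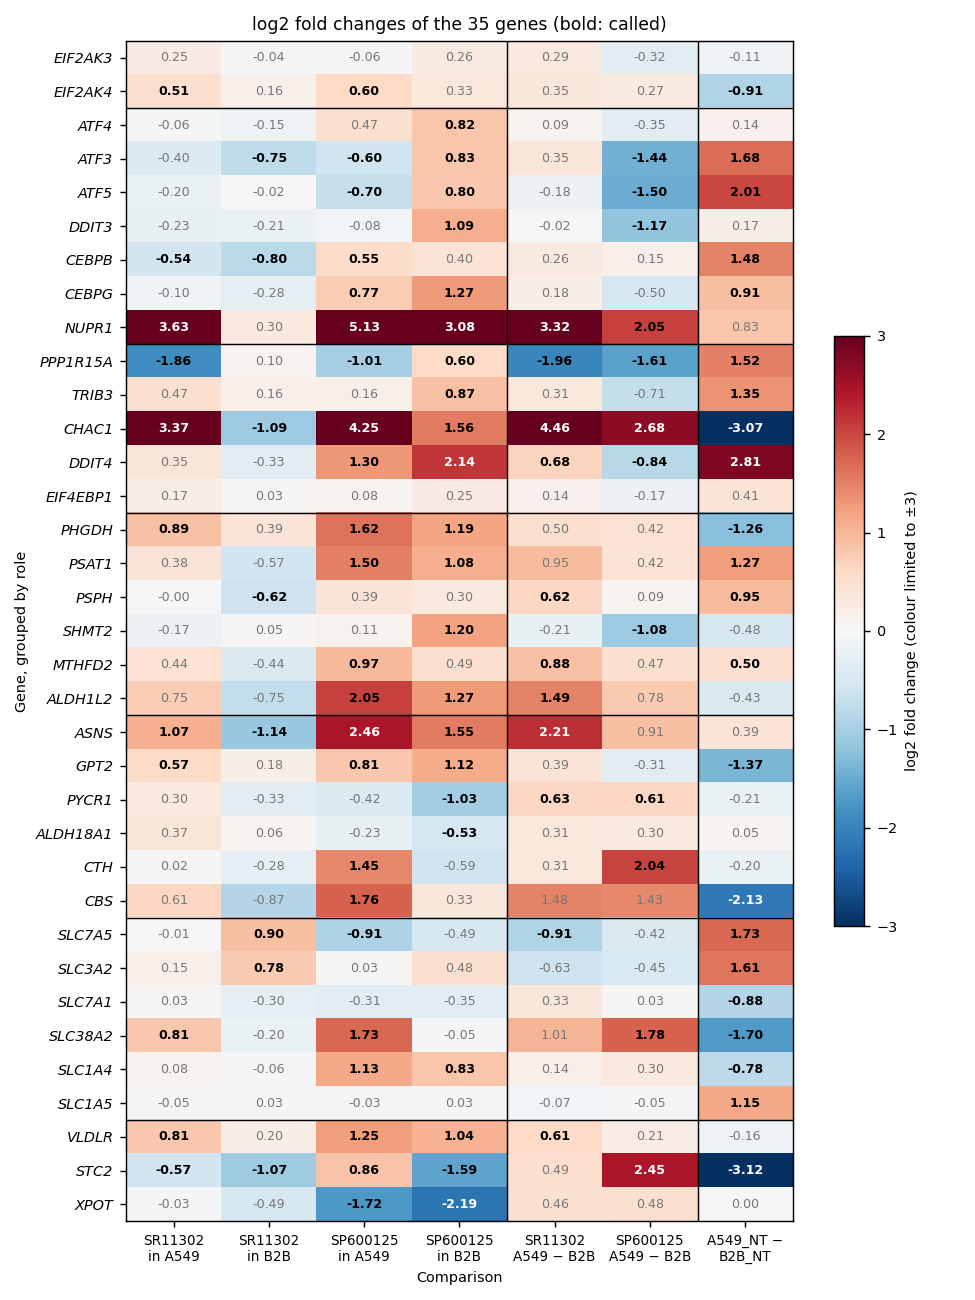
log2 fold changes (colour, limited to ±3, and number) of the 35 genes, grouped by role on the y axis, for each inhibitor against NT in each line, for the difference of each response between the lines, and for A549_NT minus B2B_NT (x axis). Bold numbers are called; under SP600125 18 genes are called higher in each line, and under SR11302 8 in A549 and 2 in B2B.

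Of the 2 eIF2alpha kinases, EIF2AK3 encodes PERK, which senses stress of the endoplasmic reticulum, and EIF2AK4 encodes GCN2, which senses uncharged tRNA. EIF2AK4 was read at 63.3 and 69.5 CPM in A549_NT, 94.6 and 94.0 in A549_SR11302 and 100.4 and 101 in A549_SP600125. It rose in A549 with SR11302 (0.51 ± 0.10, adjusted p of 0.00121) and with SP600125 (0.60 ± 0.10, adjusted p of 0.000138), and the treated libraries lay above both NT libraries. Both calls sat near the fold minimum. In B2B, EIF2AK4 was 129 and 121 CPM in B2B_NT, 140.0 and 139 in B2B_SR11302 and 152 and 161 in B2B_SP600125, and its difference under SP600125 passed the test but not the fold minimum (0.33 ± 0.09). An offset for GC content took both A549 estimates under the minimum (0.45 and 0.44), as did leaving out A549_NT replicate 1 for SR11302 (0.44). EIF2AK3 ranged only from 21.5 to 33.1 CPM over the 12 libraries and was not called in any comparison of the TMM-scaled fit, though with a GC content offset it was lower under SP600125 than under SR11302 in A549 (-0.53).

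Of the transcription factors, ATF4 is the centre of the response. ATF4 (chr22:39519695-39522683 in hg38, per GENCODE) was read at 250.4 and 229.9 CPM in A549_NT, 243 and 217 in A549_SR11302 and 324 and 343 in A549_SP600125. The SP600125 libraries were the highest, and the difference from NT passed the test but not the fold minimum (0.47 ± 0.11, adjusted p of 0.00211). In B2B, ATF4 was 213 and 224 CPM in B2B_NT, 186 and 207 in B2B_SR11302 and 359 and 414 in B2B_SP600125. There the rise under SP600125 was called (0.82 ± 0.11, adjusted p of 3.23e-05), while the SR11302 value was -0.15 ± 0.11 and not called. The 2 responses to SP600125 did not differ detectably between the lines (A549 minus B2B, -0.35 ± 0.15, adjusted p of 0.111). In A549 a GC content offset moved the estimate to 0.82 and made it a call. Only 75.7% of the 50-base windows of the ATF4 transcript occur once in the genome, so that some of its reads may have been lost or shared with copies.

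DDIT3 encodes CHOP, a factor that ATF4 induces and that can promote cell death. It was read at 10.7 and 11.1 CPM in B2B_NT, 8.35 and 10.6 in B2B_SR11302 and 22.0 and 24.3 in B2B_SP600125. The SP600125 libraries of B2B lay above all other libraries, a fitted rise of 2.13-fold over NT (1.09 ± 0.14, adjusted p of 3.02e-05). In A549 DDIT3 was 12.7 and 11.8 CPM in A549_NT, 10.7 and 10.3 in A549_SR11302 and 11.6 and 11.7 in A549_SP600125, with a log2 fold change of -0.08 ± 0.15 under SP600125. The difference between the lines was itself called (-1.17 ± 0.21, adjusted p of 0.00124). Under SR11302 it was not called in either line (-0.23 ± 0.15 and -0.21 ± 0.15).

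ATF3, a stress factor that can also pair with Jun proteins, and ATF5, a further bZIP factor translated under stress, moved in opposite directions in the 2 lines under SP600125. ATF3 was read at 49.6 and 48.2 CPM in A549_NT, 42.5 and 31.6 in A549_SR11302 and 32.6 and 31.8 in A549_SP600125. It fell in A549 with SP600125 (-0.60 ± 0.14, adjusted p of 0.00185), and both SP600125 libraries lay under both NT libraries. In B2B, ATF3 was 14.8 and 15.7 CPM in B2B_NT, 9.21 and 8.90 in B2B_SR11302 and 27.3 and 27.2 in B2B_SP600125. There it rose with SP600125 (0.83 ± 0.14, adjusted p of 0.000233) and fell with SR11302 (-0.75 ± 0.15, adjusted p of 0.00205), with no overlap among the 3 groups. The A549 decrease with SR11302 passed the test without reaching the fold minimum (-0.40 ± 0.13), and was called at -0.62 without A549_SR11302 replicate 1, as was that of ATF5 at -0.61. ATF5 was 112 and 102 CPM in A549_NT, 116 and 70.1 in A549_SR11302 and 66.4 and 65.5 in A549_SP600125, and it fell under SP600125 (-0.70 ± 0.21, adjusted p of 0.0116). In B2B, ATF5 was 26.3 and 26.9 CPM in B2B_NT, 24.7 and 27.9 in B2B_SR11302 and 56.1 and 36.2 in B2B_SP600125, and it rose (0.80 ± 0.22, adjusted p of 0.00686). The ATF5 rise in B2B was larger in replicate 1 and was not called without it (0.41). The ATF5 fall in A549 was not called without A549_NT replicate 1, without either A549_SP600125 replicate, or with a GC content offset, which left -0.15. The line differences were called for ATF3 (-1.44 ± 0.20, adjusted p of 0.000183) and for ATF5 (-1.50 ± 0.30, adjusted p of 0.00288).

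CEBPB and CEBPG encode C/EBP partners of ATF4. CEBPG was read at 106 and 108 CPM in A549_NT, 90.3 and 109 in A549_SR11302 and 189 and 175 in A549_SP600125, and at 56.7 and 57.3 CPM in B2B_NT, 49.7 and 44.4 in B2B_SR11302 and 116 and 159 in B2B_SP600125. It rose with SP600125 in A549 (0.77 ± 0.14, adjusted p of 0.000396) and in B2B (1.27 ± 0.14, adjusted p of 8.1e-06), and in each line the treated libraries lay above all others. With a GC content offset the A549 value fell under the fold minimum, at 0.41. CEBPB was 93.5 and 80.8 CPM in A549_NT, 60.3 and 59.5 in A549_SR11302 and 129.5 and 126 in A549_SP600125, and 28.8 and 33.5 CPM in B2B_NT, 17.7 and 18.0 in B2B_SR11302 and 38.8 and 43.6 in B2B_SP600125. It fell with SR11302 in A549 (-0.54 ± 0.11, adjusted p of 0.00248) and in B2B (-0.80 ± 0.12, adjusted p of 0.000337), and rose with SP600125 in A549 (0.55 ± 0.11, adjusted p of 0.000949). In B2B the SP600125 difference passed the test but not the fold minimum (0.40 ± 0.12, adjusted p of 0.0106). The 2 responses of CEBPB to SP600125 did not differ detectably between the lines (0.15 ± 0.16, adjusted p of 0.542). The groups of each line did not overlap. The A549 fall was lost without A549_NT replicate 1 or with a GC content offset (-0.24), and the A549 rise was under the minimum without A549_NT replicate 2 (0.45).

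NUPR1, a small chromatin-associated protein that many stresses induce, showed the largest rise of any member under SP600125 in both lines (chr16:28532708-28539008, minus strand). It was read at 2.39 and 1.91 CPM in A549_NT, 25.7 and 27.4 in A549_SR11302 and 70.2 and 80.1 in A549_SP600125. The 3 groups did not overlap, and the lowest treated library stood at 25.7 CPM. The log2 fold change was 3.63 ± 0.30 with SR11302 (adjusted p of 1.47e-06) and 5.13 ± 0.30 with SP600125 (adjusted p of 4.5e-08). In B2B, NUPR1 was 0.814 and 1.55 CPM in B2B_NT, 1.23 and 1.80 in B2B_SR11302 and 6.96 and 13.6 in B2B_SP600125, from 17 and 38 reads in the NT libraries. It rose with SP600125 (3.08 ± 0.33, adjusted p of 5.55e-06) and had no call with SR11302 (0.30 ± 0.42). Both responses differed between the lines, by 3.32 ± 0.53 for SR11302 (adjusted p of 0.000917) and by 2.05 ± 0.48 for SP600125 (adjusted p of 0.0074). The SP600125 difference was not called without B2B_NT replicate 2, at 1.49.

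**Figure D3:**
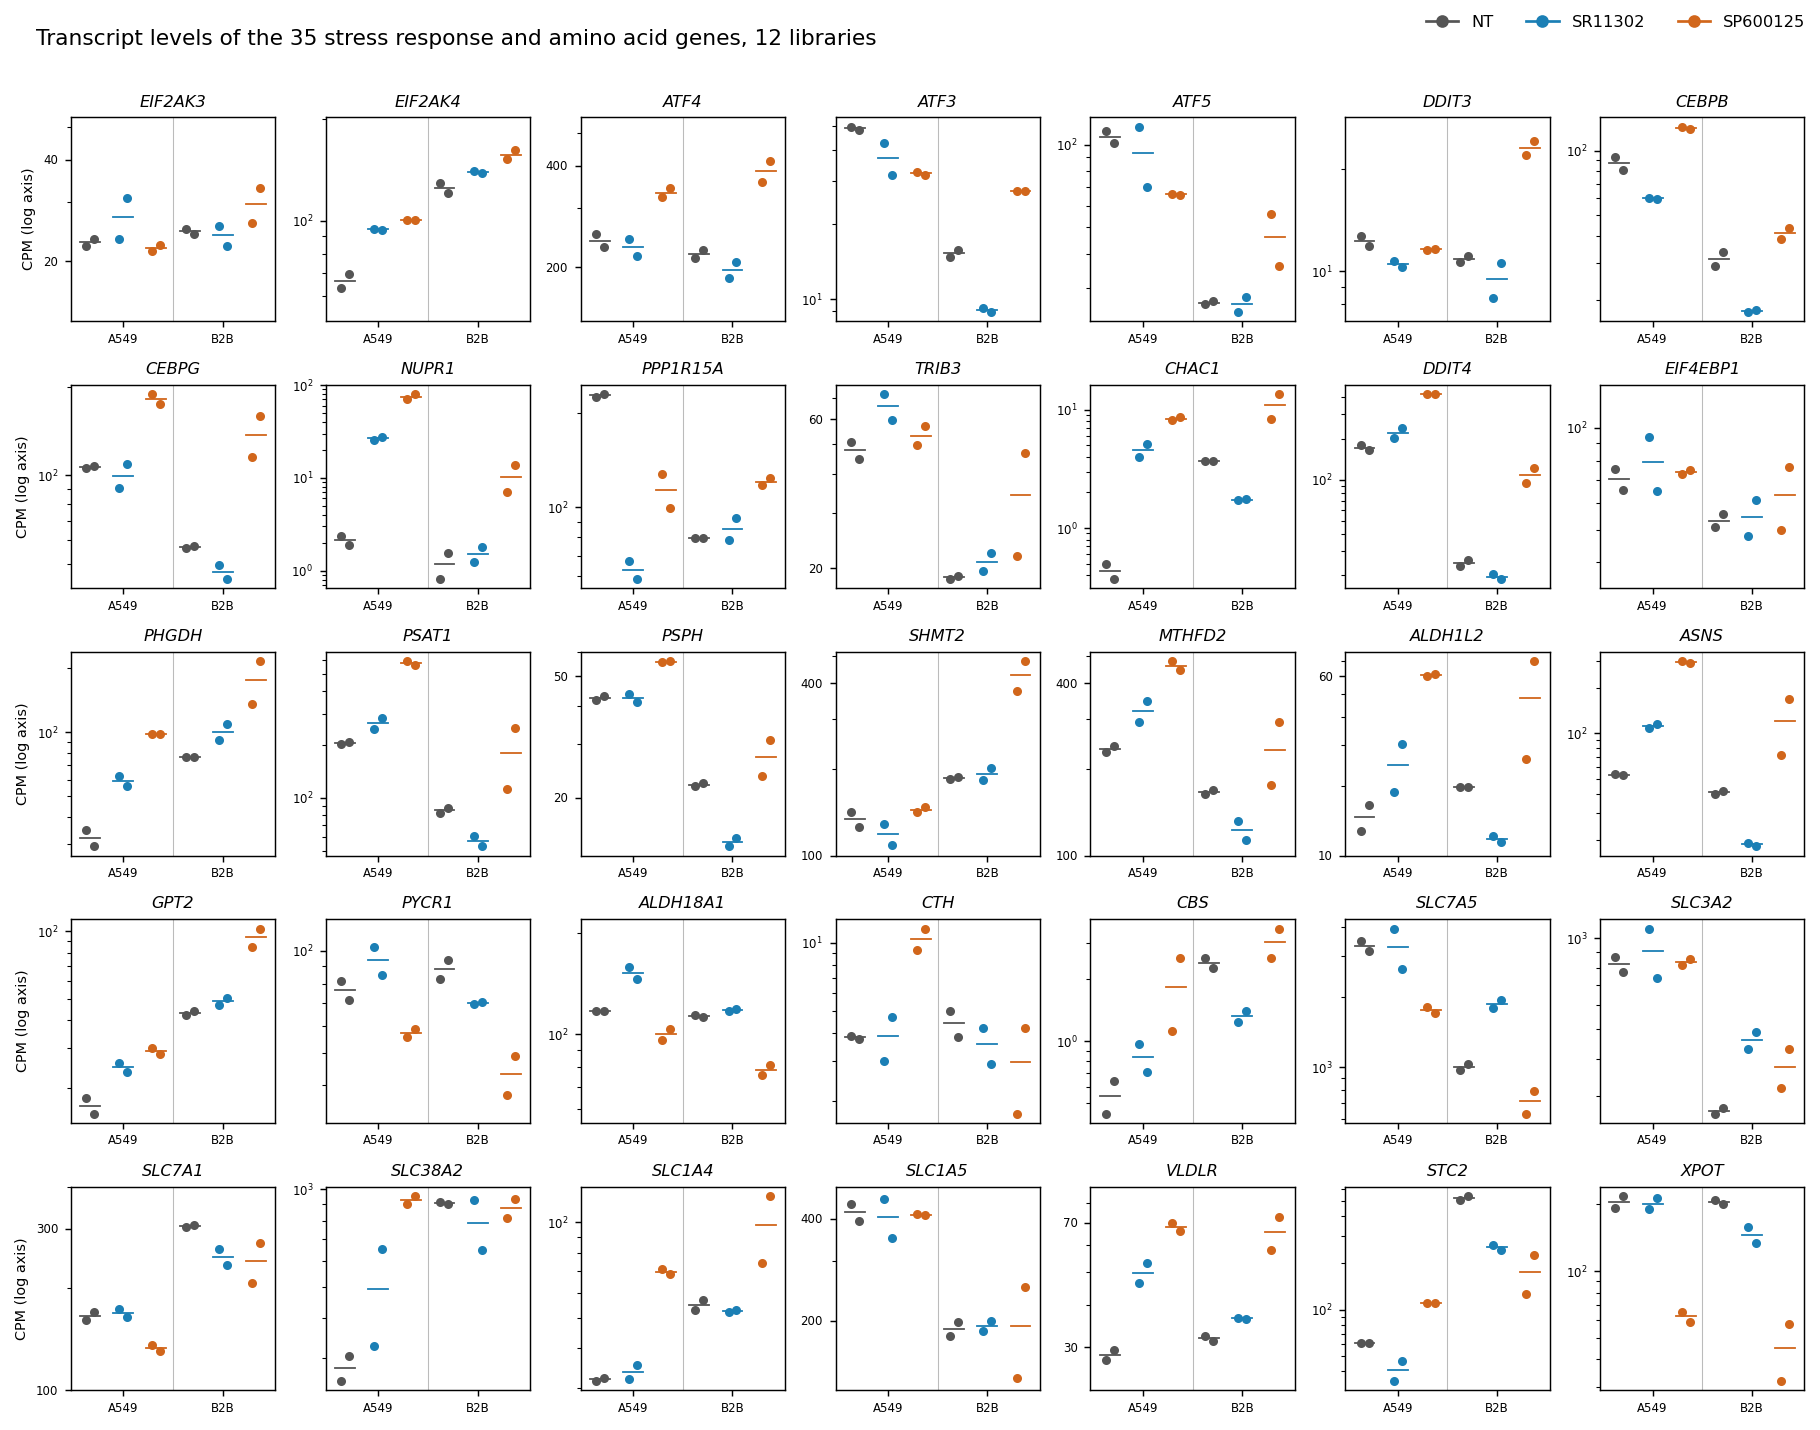
CPM on a log y axis of each of the 35 genes in the 12 libraries, each library being a point and the bar their mean; the x axis gives A549 and then B2B, each in the order NT, SR11302, SP600125. NUPR1 and CHAC1 show the widest spans, and EIF2AK3 stays between 21.5 and 33.1 CPM.

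Among the feedback genes and growth brakes, CHAC1 encodes an enzyme that breaks down glutathione and is a well-known CHOP and ATF4 target. CHAC1 (chr15:40952962-40956512) was read at 0.500 and 0.372 CPM in A549_NT, 3.98 and 5.10 in A549_SR11302 and 8.12 and 8.62 in A549_SP600125, from 9 and 7 reads in the NT libraries. It rose in A549 with SR11302 (3.37 ± 0.35, adjusted p of 1.03e-05) and with SP600125 (4.25 ± 0.34, adjusted p of 4.15e-07), with no overlap among the 3 groups. In B2B, CHAC1 was 3.69 and 3.71 CPM in B2B_NT, 1.73 and 1.75 in B2B_SR11302 and 8.42 and 13.6 in B2B_SP600125. There it fell with SR11302 (-1.09 ± 0.27, adjusted p of 0.00873) and rose with SP600125 (1.56 ± 0.23, adjusted p of 7.25e-05). Thus SR11302 moved CHAC1 in opposite directions in the 2 lines, and the difference was called (4.46 ± 0.45, adjusted p of 2.19e-05), as was that for SP600125 (2.68 ± 0.44, adjusted p of 0.000655). The fall in B2B had an adjusted p of 0.0529 (edgeR) without B2B_SR11302 replicate 1.

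PPP1R15A encodes GADD34, which brings a phosphatase to eIF2alpha and so ends the response. PPP1R15A (chr19:48872212-48876059) was read at 226 and 231 CPM in A549_NT, 67.4 and 58.9 in A549_SR11302 and 128 and 99.7 in A549_SP600125. It fell in A549 with SR11302 (-1.86 ± 0.13, adjusted p of 3.2e-07) and with SP600125 (-1.01 ± 0.13, adjusted p of 1.93e-05), and every treated library lay under both NT libraries. In B2B, PPP1R15A was 79.8 and 79.4 CPM in B2B_NT, 78.3 and 92.5 in B2B_SR11302 and 118 and 124 in B2B_SP600125, and it rose with SP600125 (0.60 ± 0.13, adjusted p of 0.00131) with no call for SR11302 (0.10 ± 0.13). Both line differences were called (-1.96 ± 0.18 for SR11302, adjusted p of 1.12e-05, and -1.61 ± 0.18 for SP600125, adjusted p of 4.29e-05). DDIT4 encodes REDD1, a stress-induced inhibitor of the growth kinase complex mTORC1. DDIT4 was 179 and 164 CPM in A549_NT, 202 and 237 in A549_SR11302 and 423 and 424 in A549_SP600125, and 23.3 and 25.9 CPM in B2B_NT, 20.4 and 18.8 in B2B_SR11302 and 95.2 and 122 in B2B_SP600125. DDIT4 rose with SP600125 in A549 (1.30 ± 0.13, adjusted p of 1.95e-06) and more so in B2B (2.14 ± 0.13, adjusted p of 5.39e-08), the difference being called (-0.84 ± 0.18, adjusted p of 0.00416) except with a GC content offset (-0.51, adjusted p of 0.0933).

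TRIB3, a pseudokinase that dampens ATF4 and CHOP, was read at 18.5 and 18.9 CPM in B2B_NT, 19.6 and 22.4 in B2B_SR11302 and 21.8 and 46.7 in B2B_SP600125. The 2 SP600125 libraries differed, and replicate 1 lay under the higher of the B2B_SR11302 libraries. The rise was called (0.87 ± 0.25, adjusted p of 0.00962) but not without replicate 2, where it was 0.23. In A549 TRIB3 ranged from 44.6 to 72.2 CPM with no call under either inhibitor in the TMM-scaled fit (0.47 ± 0.24 and 0.16 ± 0.24), but with a GC content offset it was called higher under SR11302 (0.63) and under SP600125 (0.85), and under SR11302 also without B2B_SP600125 replicate 1 (0.50). EIF4EBP1, which encodes a repressor of cap-dependent translation, ranged from 48.0 to 93.8 CPM and was not called in any comparison of the TMM-scaled fit. With a GC content offset EIF4EBP1 was called higher under SP600125 than in NT, at 0.88 in A549 and 0.65 in B2B, and higher than under SR11302, at 0.52 and 0.72.

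Serine synthesis runs through PHGDH, PSAT1 and PSPH, and SHMT2, MTHFD2 and ALDH1L2 handle the resulting one-carbon units in mitochondria. Under SP600125, 4 of these 6 rose in A549 (against 23.9% of all genes tested) and 4 in B2B (against 21.2%). PHGDH, which catalyses the first step, was read at 34.9 and 29.2 CPM in A549_NT, 62.6 and 55.8 in A549_SR11302 and 98.2 and 98.5 in A549_SP600125. The A549 groups did not overlap, and PHGDH rose with SR11302 (0.89 ± 0.18, adjusted p of 0.00194) and SP600125 (1.62 ± 0.18, adjusted p of 6.85e-06). In B2B, PHGDH was 76.9 and 76.7 CPM in B2B_NT, 91.8 and 109.5 in B2B_SR11302 and 136 and 216 in B2B_SP600125, with a rise under SP600125 (1.19 ± 0.17, adjusted p of 7.09e-05) and no call under SR11302 (0.39 ± 0.17, adjusted p of 0.106). PSAT1, the second enzyme, was 201 and 207 CPM in A549_NT, 246 and 283 in A549_SR11302 and 593 and 562 in A549_SP600125, and 82.0 and 87.6 CPM in B2B_NT, 60.9 and 53.1 in B2B_SR11302 and 113 and 247 in B2B_SP600125. Under SP600125 it rose in A549 (1.50 ± 0.24, adjusted p of 0.000133) and in B2B (1.08 ± 0.24, adjusted p of 0.00186), but without B2B_SP600125 replicate 2 the B2B value was 0.41 and no longer a call. PSPH, the last enzyme, fell in B2B with SR11302 (-0.62 ± 0.14, adjusted p of 0.00404), from 21.8 and 22.3 CPM in NT to 13.9 and 14.8.

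The mitochondrial enzymes differed from one another. ALDH1L2, a formyltetrahydrofolate dehydrogenase, was read at 12.7 and 16.6 CPM in A549_NT, 18.8 and 30.4 in A549_SR11302 and 60.3 and 61.0 in A549_SP600125. Both SP600125 libraries lay above all other A549 libraries (2.05 ± 0.34, adjusted p of 0.000175). Under SR11302 in A549, neither ALDH1L2 (0.75 ± 0.34, adjusted p of 0.101) nor MTHFD2 (0.44 ± 0.18, adjusted p of 0.0679) was called in the TMM-scaled fit with all libraries. Without A549_SR11302 replicate 1 the 2 values were 1.05 and 0.56. In B2B, ALDH1L2 was 19.8 and 19.9 CPM in B2B_NT, 12.1 and 11.5 in B2B_SR11302 and 26.2 and 69.7 in B2B_SP600125, and its call under SP600125 (1.27 ± 0.33, adjusted p of 0.005) was lost without replicate 2 (0.41). MTHFD2, the mitochondrial folate dehydrogenase, was 231 and 241 CPM in A549_NT, 293 and 347 in A549_SR11302 and 479.5 and 444 in A549_SP600125, and rose with SP600125 (0.97 ± 0.18, adjusted p of 0.0004). In B2B, MTHFD2 was 164 and 169 CPM in B2B_NT, 132 and 114 in B2B_SR11302 and 176 and 293 in B2B_SP600125, where the SP600125 difference passed the test but not the minimum (0.49 ± 0.18) and was called without B2B_SP600125 replicate 1 (0.78). SHMT2, the mitochondrial serine hydroxymethyltransferase, was 185 and 188 CPM in B2B_NT, 183 and 202 in B2B_SR11302 and 377 and 478 in B2B_SP600125. It rose in B2B with SP600125 (1.20 ± 0.13, adjusted p of 4.83e-06), both libraries lying above all others. In A549 SHMT2 kept between 109.0 and 147 CPM, with a log2 fold change of 0.11 ± 0.13 under SP600125, and the lines differed (-1.08 ± 0.18, adjusted p of 0.000765).

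ASNS, asparagine synthetase, is a classical target of ATF4 and carries the match printed above (chr7:97851677-97872542, minus strand). It was read at 54.0 and 53.1 CPM in A549_NT, 109 and 116 in A549_SR11302 and 299 and 290.0 in A549_SP600125. The 3 A549 groups did not overlap, and ASNS rose with SR11302 (1.07 ± 0.25, adjusted p of 0.00496) and with SP600125 (2.46 ± 0.26, adjusted p of 4.14e-06). In B2B, ASNS was 39.8 and 42.1 CPM in B2B_NT, 19.1 and 18.1 in B2B_SR11302 and 72.5 and 168 in B2B_SP600125. There SR11302 lowered it (-1.14 ± 0.26, adjusted p of 0.00592) and SP600125 raised it (1.55 ± 0.25, adjusted p of 0.000188), again without overlap. The opposite responses to SR11302 differed by 2.21 ± 0.37 (adjusted p of 0.00115). For SP600125 the difference was 0.91 ± 0.35 and not called (adjusted p of 0.0737), but without B2B_SP600125 replicate 2 it was 1.63 and called, as it was with DESeq2 (0.92).

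GPT2, the mitochondrial alanine aminotransferase, was read at 17.9 and 15.3 CPM in A549_NT, 25.9 and 23.5 in A549_SR11302 and 30.2 and 28.3 in A549_SP600125, and at 42.1 and 43.9 CPM in B2B_NT, 47.0 and 50.4 in B2B_SR11302 and 84.8 and 103 in B2B_SP600125. It rose with SP600125 in A549 (0.81 ± 0.13, adjusted p of 0.00017) and B2B (1.12 ± 0.13, adjusted p of 7.16e-06) and with SR11302 in A549 (0.57 ± 0.13, adjusted p of 0.00494), the last call being lost without A549_NT replicate 2 or A549_SR11302 replicate 1. Both proline enzymes fell in B2B under SP600125. PYCR1, which makes the final product, was 82.8 and 94.0 CPM in B2B_NT, 69.7 and 70.8 in B2B_SR11302 and 37.5 and 49.0 in B2B_SP600125, and decreased (-1.03 ± 0.14, adjusted p of 3.87e-05). ALDH18A1, which starts the pathway, was 114 and 113 CPM in B2B_NT, 117 and 119 in B2B_SR11302 and 75.9 and 80.9 in B2B_SP600125, and decreased as well (-0.53 ± 0.10, adjusted p of 0.000379), though to -0.39 and no call when scaled by library size alone. In A549 their SP600125 values were -0.42 ± 0.14 and -0.23 ± 0.10, neither of them called, though PYCR1 was at -0.51 without A549_NT replicate 2. The PYCR1 difference between the lines was called (0.61 ± 0.20, adjusted p of 0.0341), but leaving out any of 5 libraries removed the call.

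Transsulfuration, which makes cysteine from homocysteine, uses CBS and CTH. CTH was read at 3.89 and 3.77 CPM in A549_NT, 3.01 and 4.73 in A549_SR11302 and 9.31 and 11.6 in A549_SP600125. Both SP600125 libraries of A549 exceeded all others (1.45 ± 0.32, adjusted p of 0.00154). In B2B, CTH was 5.03 and 3.83 CPM in B2B_NT, 4.24 and 2.93 in B2B_SR11302 and 1.77 and 4.20 in B2B_SP600125, where the difference under SP600125 was not called (-0.59 ± 0.34, adjusted p of 0.166). It was called at -1.31 without B2B_SP600125 replicate 2, at -0.78 with a GC content offset and at -0.59 with no count filter. The lines differed (2.04 ± 0.47, adjusted p of 0.00632). CBS was 0.445 and 0.637 CPM in A549_NT, 0.971 and 0.711 in A549_SR11302 and 1.12 and 2.55 in A549_SP600125, from 8 to 37 reads. It was called in A549 under SP600125 (1.76 ± 0.45, adjusted p of 0.00413), but not without A549_SP600125 replicate 2. Only 28.2% of the windows of CBS occur once in the genome, and a near-identical copy of the gene exists, so that its values are uncertain.

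Of the 6 transporters, 2 rose and 1 fell under SP600125 in A549, where 23.9% of all genes tested rose and 25.0% fell. The median log2 fold change of the 6 was -0.0006. SLC38A2, a sodium-coupled carrier of small neutral amino acids, was read at 255 and 304 CPM in A549_NT, 327 and 654 in A549_SR11302 and 901 and 955 in A549_SP600125. The SP600125 libraries were the highest of the line (1.73 ± 0.25, adjusted p of 5.08e-05). With SR11302 the libraries differed widely, and the call (0.81 ± 0.24, adjusted p of 0.0186) was lost without replicate 2 (0.25) or without A549_NT replicate 1. In B2B, SLC38A2 was 914 and 899 CPM in B2B_NT, 928 and 649 in B2B_SR11302 and 816 and 935 in B2B_SP600125, with -0.05 ± 0.24 under SP600125, and the lines differed (1.78 ± 0.34, adjusted p of 0.00208). SLC1A4, a carrier of serine, alanine and threonine, was 31.6 and 32.3 CPM in A549_NT, 32.0 and 35.5 in A549_SR11302 and 71.3 and 68.6 in A549_SP600125, and 52.8 and 57.1 CPM in B2B_NT, 52.1 and 53.1 in B2B_SR11302 and 74.2 and 121 in B2B_SP600125. It rose with SP600125 in A549 (1.13 ± 0.18, adjusted p of 0.000101) and in B2B (0.83 ± 0.17, adjusted p of 0.00102), the latter under the minimum without replicate 2 (0.44).

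SLC7A5 and SLC3A2 encode the light and heavy chains of the large neutral amino acid exchanger. SLC7A5 was read at 3485 and 3146 CPM in A549_NT, 3939 and 2631 in A549_SR11302 and 1805 and 1714 in A549_SP600125, and at 969 and 1034 CPM in B2B_NT, 1787 and 1950 in B2B_SR11302 and 632 and 792 in B2B_SP600125. It fell in A549 with SP600125 (-0.91 ± 0.17, adjusted p of 0.000366) and rose in B2B with SR11302 (0.90 ± 0.17, adjusted p of 0.0014). The A549 fall was not called with a GC content offset (-0.25). In B2B the SP600125 value passed the test just under the fold minimum (-0.49 ± 0.17, adjusted p of 0.0225), and it was called with RLE factors or DESeq2 (-0.51 with each), with the B2B groups alone (-0.53) and without B2B_SP600125 replicate 2 (-0.66). SLC3A2 was 263 and 274 CPM in B2B_NT, 431 and 491 in B2B_SR11302 and 319 and 431 in B2B_SP600125, and it rose in B2B with SR11302 (0.78 ± 0.17, adjusted p of 0.00389). In A549 it ranged from 741 to 1079 CPM, with 0.03 ± 0.17 under SP600125, while the B2B value of 0.48 ± 0.17 was a call without B2B_SP600125 replicate 1 (0.65). SLC7A1, the cationic amino acid carrier, and SLC1A5, the main glutamine carrier, had no call against NT in either line in the TMM-scaled fit. An SLC7A1 difference of -0.31 ± 0.12 in A549 and -0.35 ± 0.12 in B2B passed the test under SP600125, the latter being a call without B2B_SP600125 replicate 2 (-0.55). With a GC content offset SLC1A5 was called higher in A549 under SP600125 (0.65).

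The 3 other targets diverged. XPOT, which exports tRNA from the nucleus (chr12:64404392-64451125), was read at 192 and 218 CPM in A549_NT, 189.6 and 213 in A549_SR11302 and 65.7 and 59.2 in A549_SP600125. In B2B, XPOT was 209.8 and 200.0 CPM in B2B_NT, 158 and 134 in B2B_SR11302 and 32.1 and 57.8 in B2B_SP600125. All 4 SP600125 libraries lay under all 8 others, and XPOT fell in A549 (-1.72 ± 0.20, adjusted p of 8.99e-06) and in B2B (-2.19 ± 0.20, adjusted p of 1.45e-06). XPOT was the member called lower in both lines under SP600125 in the TMM-scaled fit, SLC7A5 being under the fold minimum in B2B, and 83.9% of its windows occur once in the genome. VLDLR, a lipoprotein receptor, was 27.5 and 29.5 CPM in A549_NT, 46.4 and 53.3 in A549_SR11302 and 69.7 and 66.1 in A549_SP600125, and 32.3 and 31.3 CPM in B2B_NT, 36.7 and 36.5 in B2B_SR11302 and 58.1 and 73.0 in B2B_SP600125. VLDLR rose with SP600125 in A549 (1.25 ± 0.13, adjusted p of 3.21e-06) and B2B (1.04 ± 0.13, adjusted p of 1.51e-05) and with SR11302 in A549 (0.81 ± 0.13, adjusted p of 0.000317). STC2, a secreted glycoprotein (chr5:173314723-173328447, minus strand), was 60.5 and 60.6 CPM in A549_NT, 34.6 and 46.7 in A549_SR11302 and 109.9 and 110.3 in A549_SP600125, and 512 and 544 CPM in B2B_NT, 260.1 and 244 in B2B_SR11302 and 126 and 224 in B2B_SP600125. Under SP600125 it rose in A549 (0.86 ± 0.20, adjusted p of 0.00243) and fell in B2B (-1.59 ± 0.20, adjusted p of 2.1e-05), with a called difference (2.45 ± 0.29, adjusted p of 5.69e-05). Under SR11302 it fell in both lines (-0.57 ± 0.21, adjusted p of 0.0422, and -1.07 ± 0.20, adjusted p of 0.0014), the A549 call being lost under 11 of 19 alternatives.

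Before treatment the lines already differed in many members. In A549_NT against B2B_NT, 13 were higher (37.1%, against 30.4% of all genes tested) and 9 lower (25.7%, against 26.5%), shares near those of all genes. The largest excesses in A549_NT were in DDIT4 (2.81 ± 0.14, adjusted p of 3.43e-10), ATF5 (2.01 ± 0.22, adjusted p of 1.86e-06), SLC7A5 (1.73 ± 0.17, adjusted p of 6.35e-07), ATF3 (1.68 ± 0.14, adjusted p of 1.08e-07) and SLC3A2 (1.61 ± 0.17, adjusted p of 1.43e-06). The largest excesses in B2B_NT were in STC2 (-3.12 ± 0.21, adjusted p of 1.28e-08), CHAC1 (-3.07 ± 0.36, adjusted p of 3.7e-06), CBS (-2.13 ± 0.41, adjusted p of 0.000381), SLC38A2 (-1.70 ± 0.25, adjusted p of 3.18e-05) and GPT2 (-1.37 ± 0.13, adjusted p of 5.06e-07). In each of these 10 members the libraries of the 2 untreated lines did not overlap. The 10 were picked as the largest called differences, so that this adds no further evidence. ATF4 (0.14 ± 0.11), DDIT3 (0.17 ± 0.15), ASNS (0.39 ± 0.25) and XPOT (0.00 ± 0.19) had no called difference between the untreated lines. The excess of MTHFD2 (0.50 ± 0.18) stood at the fold minimum and was lost under 15 of 19 alternatives.

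Taking the lines side by side, 11 of the 18 members that rose under SP600125 in each line were the same genes (11.5% of all genes tested rose in both). They were CHAC1, ASNS, PSAT1, PHGDH, ALDH1L2, GPT2, SLC1A4, CEBPG, NUPR1, DDIT4 and VLDLR. XPOT was called lower in both (13.1% of all genes were). SLC7A5 was also called lower in both under the alternatives named above. ATF3, ATF5, PPP1R15A and STC2 were called in opposite directions (2.39% of all genes), each with a called difference. The test of the difference between the lines called 12 members for SP600125, 6 with the higher A549 response (17.1%, against 12.1% of all genes) and 6 with the lower (17.1%, against 13.1%). The median SP600125 difference of the members was 0.15 with all libraries. It was 0.32 without B2B_SP600125 replicate 2 and -0.01 without replicate 1. For SR11302 CEBPB and STC2 fell in both lines (4.66% of all genes), CHAC1 and ASNS were called in opposite directions (1.56%), and edgeR called no member higher in both (3.65%), as did DESeq2, with 1 member at an unadjusted p under 0.05 in both. The test of the difference called 11, of which 9 had the higher response in A549 (25.7%, against 8.34%) and 2 the lower (5.71%, against 7.41%). The 9 were CHAC1, NUPR1, ASNS, ALDH1L2 (1.49 ± 0.48, adjusted p of 0.0495), MTHFD2 (0.88 ± 0.25, adjusted p of 0.0298), DDIT4, PYCR1, PSPH and VLDLR, and the 2 were PPP1R15A and SLC7A5 (-0.91 ± 0.23, adjusted p of 0.0174). Several of these sat near the threshold, and leaving out 1 library brought the count to between 4 and 13, with 4 members left without B2B_SR11302 replicate 2 and 5 without any of the 4 NT libraries in turn.

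**Figure D4:**
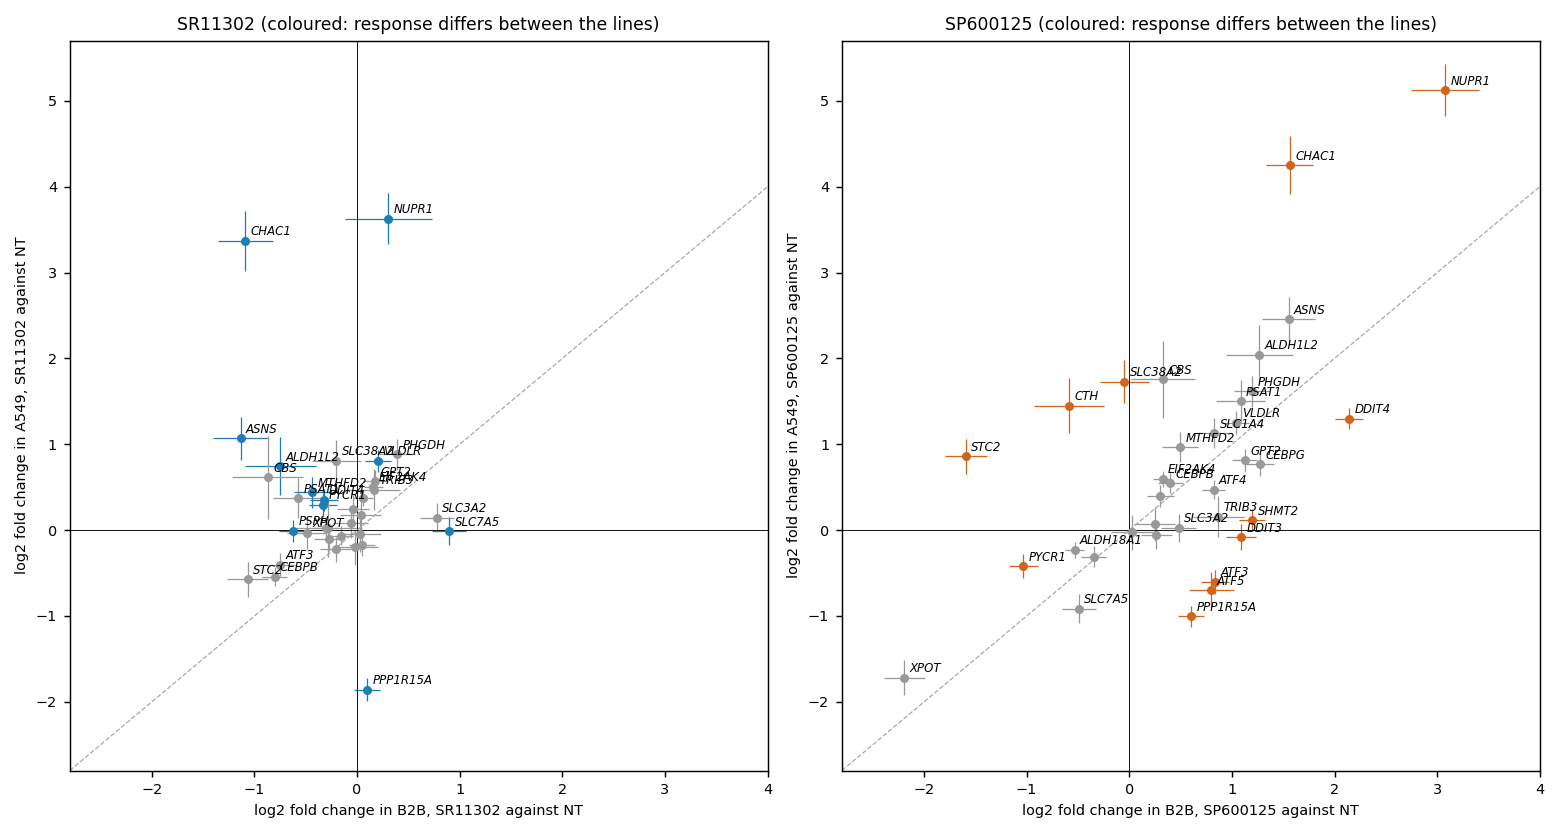
log2 fold change against NT in B2B (x axis) and A549 (y axis) of the 35 genes under SR11302 (left) and SP600125 (right), with standard errors as bars; coloured points have a called difference between the lines and the dashed line marks equal responses. CHAC1 and ASNS lie in the upper left quadrant under SR11302, and ATF3, ATF5 and PPP1R15A in the lower right under SP600125.

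The direct comparison of the 2 inhibitors, given at different doses, placed more members higher than lower under SP600125. In A549, 17 were higher than under SR11302 (48.6%, against 16.6% of all genes tested) and 4 lower (11.4%, against 20.5%). In B2B, 22 were higher (62.9%, against 15.6%) and 5 lower (14.3%, against 18.1%). There the median log2 fold change of the members was 0.84 with all libraries. It was 0.52 without B2B_SP600125 replicate 2 and 1.06 without replicate 1. NUPR1 had the largest excess in both lines, at 1.50 ± 0.23 in A549 (adjusted p of 0.000172) and 2.78 ± 0.33 in B2B (adjusted p of 2.22e-05). The largest deficit was that of XPOT, at -1.69 ± 0.20 (adjusted p of 2.13e-05) and -1.70 ± 0.20 (adjusted p of 2.17e-05). SLC7A5, PYCR1 and ALDH18A1 were also called lower under SP600125 than under SR11302 in both lines. With a GC content offset PYCR1 was not called in either line (-0.10 in A549 and -0.20 in B2B), nor SLC7A5 in A549 (-0.37).

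Other genes of the pathway, in lists that hold none of the 35 members, were read from the same fit. Their counts stand beside shares over all genes tested of 23.9% higher and 25.0% lower under SP600125 in A549, 21.2% and 22.6% in B2B, 14.8% and 13.0% under SR11302 in A549, and 11.4% and 11.1% in B2B. The 20 cytosolic aminoacyl-tRNA synthetases, which charge tRNAs with amino acids, rose in 12 cases and fell in 3 under SP600125 in A549, with a median of 0.59, and rose in 7 and fell in 3 in B2B, with a median of 0.34. Without B2B_SP600125 replicate 2 the B2B count was 6 called of 20, against 10 with it. AARS rose in A549 (1.24 ± 0.11, adjusted p of 7.69e-07), CARS and TARS in B2B (0.89 ± 0.14, adjusted p of 0.000126 and 0.84 ± 0.11, adjusted p of 1.94e-05), and VARS fell in both (-1.30 ± 0.15, adjusted p of 7.63e-06 and -2.03 ± 0.15, adjusted p of 2.41e-07). Under SR11302 in A549, EPRS was called higher (0.51 ± 0.13, adjusted p of 0.00916) and 6 more of the 20 passed the test under the fold minimum, while without B2B_SP600125 replicate 1 the number called was 4. In B2B edgeR and DESeq2 each called 0 of the 20, with 1 higher and 4 lower at an unadjusted p under 0.05. Of 23 tested genes known to respond to ATF4 or CHOP, 16 rose and 1 fell under SP600125 in A549 (median 0.84), and 15 rose and 2 fell in B2B (median 1.02). Under SR11302, 10 rose and 1 fell in A549 (median 0.45), and 4 rose and 3 fell in B2B (median 0.07). BMF, a pro-apoptotic BCL2 family gene, rose with SP600125 in A549 (3.89 ± 0.26, adjusted p of 1.12e-07) and B2B (2.59 ± 0.20, adjusted p of 3.5e-07) and with SR11302 in A549 (2.68 ± 0.27, adjusted p of 8.91e-06). ADM2, a peptide hormone gene, fell with SR11302 in B2B (-1.27 ± 0.38, adjusted p of 0.0243), with a called difference between the lines (2.79 ± 0.57, adjusted p of 0.00456). In the list of other stress kinases, eIF2, eIF2B and phosphatase genes, 4 of 15 were higher under SP600125 in A549, and 3 were higher and 1 lower in B2B. With a GC content offset none of the 15 was called in A549, and without B2B_SP600125 replicate 1 the B2B count was 2. EIF2AK1, the haem-regulated eIF2alpha kinase, rose with SP600125 in B2B (1.08 ± 0.09, adjusted p of 5.33e-07), and its log2 fold change in A549 was 0.60. With SR11302 in B2B, EIF2AK1 was called higher as well (0.53 ± 0.09, adjusted p of 0.000716).

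The remaining amino acid lists were mixed. Of 19 further amino acid transporters, 6 rose and 1 fell with SP600125 in A549, and 3 rose and 3 fell in B2B, while SR11302 raised 5 and lowered 1 in A549 and raised 4 and lowered 1 in B2B. SLC25A22, a mitochondrial glutamate carrier, fell with SP600125 in A549 (-2.35 ± 0.21, adjusted p of 1.13e-06), SLC38A5, a glutamine carrier, fell in B2B (-4.53 ± 0.28, adjusted p of 5.5e-08), and SLC1A1, a glutamate carrier, rose with SR11302 in B2B (2.69 ± 0.34, adjusted p of 8.16e-05). Of 24 further enzymes of serine, glycine, one-carbon and proline metabolism, 6 rose and 9 fell with SP600125 in each line, with medians of -0.18 and -0.03. With SR11302, 3 rose and 5 fell in A549, and 3 rose and 3 fell in B2B. GLUL, glutamine synthetase, rose in A549 with SR11302 (2.001 ± 0.25, adjusted p of 4.84e-05) and SP600125 (2.35 ± 0.25, adjusted p of 4.72e-06). GCSH, of the glycine cleavage system, fell in all 4 inhibitor comparisons (-3.92 ± 0.30, adjusted p of 2.94e-07, with SP600125 in A549), but only 63.5% of its windows occur once in the genome and its values are uncertain. Of 17 chaperones and sensors of the ATF6 and XBP1 branches, which handle misfolded protein in parallel to the integrated response, 4 rose and 3 fell with SP600125 in A549, and 2 rose and 4 fell in B2B, with medians of 0.06 and 0.03. XBP1 itself rose in A549 (1.50 ± 0.14, adjusted p of 1.45e-06) and SDF2L1 fell in both lines (-1.96 ± 0.23, adjusted p of 1.09e-05 and -1.60 ± 0.22, adjusted p of 4.54e-05). With SR11302, 1 rose and 1 fell in A549, and 1 fell in B2B.

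**Figure D5:**
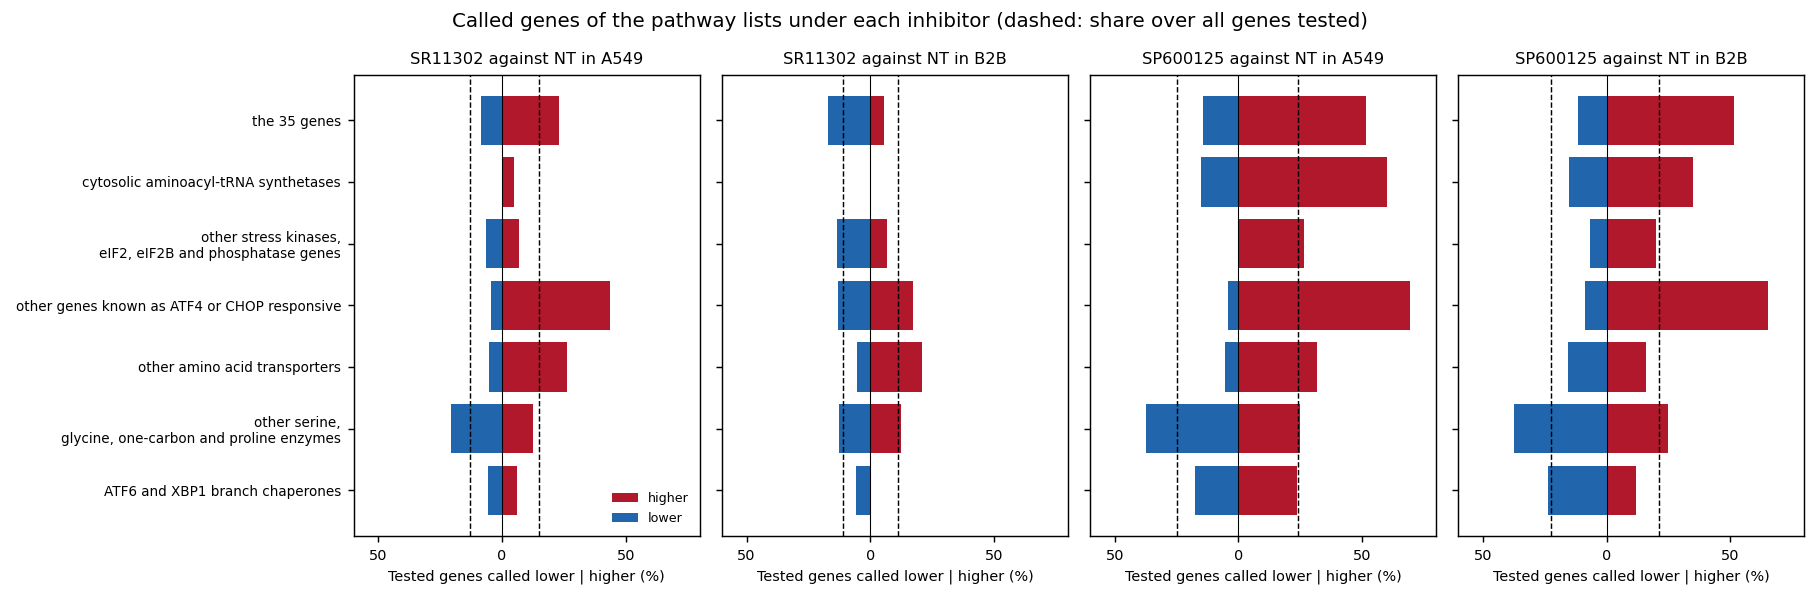
Share of tested genes called higher (red, to the right) or lower (blue, to the left) in the 35 genes and in 6 further lists (y axis), for each inhibitor against NT in each line (panels; x axis in percent), with the shares over all 16373 genes tested as dashed lines. Under SP600125 the 35 genes and the ATF4 or CHOP responsive list exceed the dashed line on the right in both lines, as do the aminoacyl-tRNA synthetases.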

How the data were processed

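Messenger RNA of 12 libraries was prepared with a KAPA mRNA HyperPrep kit and sequenced. Per the submitters' processing notes and the study's methods, the authors aligned reads with STAR 2.7.10a to hg38 and deposited raw read counts per gene symbol made with HTSeq 1.99.2; the annotation release and the strand setting were not stated, so that genes overlapping on opposite strands cannot be told apart. Rows that name no gene, among them the 14.6% to 25.9% of tallied reads without a feature, were left out of library sizes and tests.

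Counts as deposited were analysed with edgeR 4.0.16 in R 4.3.3: filterByExpr, TMM factors and the quasi-likelihood test on 6 groups of 2 libraries (6 residual degrees of freedom), with contrasts for each inhibitor against NT, between inhibitors, between lines, and for the difference of each response between lines (A549 minus B2B). Benjamini-Hochberg adjustment covered all 16373 genes tested, and a call needed an adjusted p under 0.05 and a log2 fold change of at least 0.5 in size. The model was tested on simulated data. Groups followed the labels. Members and lists were chosen with earlier results of these data known. Members with full statistics were ATF4, ATF3, DDIT3 and, by rule, up to 5 called in each direction of a comparison with the largest change; other members named were called or complete a role. For the lists, the 3 largest called changes of a comparison were eligible to be named.

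Alternatives were DESeq2 1.42.0, RLE factors, library size alone, no filter, the groups of a comparison alone, a replicate block, a GC content offset, and leaving out each library. Gene positions and GC content came from GENCODE, promoters from RefSeq (GRCh38.p14). Uniqueness is the share of a transcript's windows of 50 bases found once in hg38. Reads carried no molecular identifiers, so depth covers counting error only. The labels do not say whether same-numbered replicates of different groups are paired. Correlations of their deviations lay between -0.256 and 0.24.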

Additional observations from a re-analysis of the deposited data

Results flagged for a closer look

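The responses of 11 members to SR11302 and of 12 to SP600125 differed between the lines by the interaction test (edgeR, adjusted p under 0.05 with a difference of at least 0.5 on the log2 scale). For SR11302 25.7% of the members had the higher A549 response and 5.71% the lower, against 8.34% and 7.41% of all genes tested. For SP600125 it was 17.1% each way, near the 12.1% and 13.1% of all genes. Each value below is the log2 fold change in A549 minus that in B2B. For SR11302 the A549 response was the higher in CHAC1 (4.46), NUPR1 (3.32), ASNS (2.21), ALDH1L2 (1.49), MTHFD2 (0.88), DDIT4 (0.68), PYCR1 (0.63), PSPH (0.62) and VLDLR (0.61), and the lower in PPP1R15A (-1.96) and SLC7A5 (-0.91). CHAC1, NUPR1, ASNS and PPP1R15A kept the call under all 19 alternatives, whereas ALDH1L2 lost it under 12, PYCR1 under 10, PSPH under 9, VLDLR under 8, MTHFD2 under 5, SLC7A5 under 4 and DDIT4 under 3. For SP600125 the A549 response was the higher in CHAC1 (2.68), STC2 (2.45), NUPR1 (2.05), CTH (2.04), SLC38A2 (1.78) and PYCR1 (0.61). It was the lower in PPP1R15A (-1.61), ATF5 (-1.50), ATF3 (-1.44), DDIT3 (-1.17), SHMT2 (-1.08) and DDIT4 (-0.84). Among these 12, PYCR1 lost the call under 5 alternatives, and NUPR1 and DDIT4 under 1 each. Groups of 2 libraries were too small to look for single outlying samples.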

How the results depend on the processing

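Leaving out 1 library at a time, the members called for SR11302 against NT numbered between 7 and 13 in A549, lowest without A549_NT replicate 1, and between 7 and 11 in B2B. In B2B under SP600125 the median log2 fold change of the members was 0.60 with all libraries, 0.32 without B2B_SP600125 replicate 2 and 0.65 without replicate 1. For SP600125 against NT the count of called members moved little in each line, although in B2B its split between higher and lower moved without B2B_SP600125 replicate 2. For the difference between the lines it ran from 4 to 13 for SR11302, lowest without B2B_SR11302 replicate 2, and from 10 to 19 for SP600125, highest without B2B_SP600125 replicate 2. With the groups of the comparison fitted alone, SR11302 in A549 called 7 members. Without the low-count filter the SR11302 difference called 14 and the SP600125 difference 17, and with a GC content offset 15 each. Of single members, 3 log2 values turned sign and were called. SLC1A5 reached 0.65 for SP600125 against NT in A549 and EIF4EBP1 0.52 for SP600125 against SR11302 in A549, both with a GC content offset. SLC1A5 stood at -0.51 for SP600125 against SR11302 in B2B without B2B_SP600125 replicate 2 and at 0.36 without replicate 1. The cause was not tested. Scaled by library size alone, the median of all genes was 0.14 against 0.02 for SR11302 in A549, and 0.10 against 0.02 and 0.15 against 0.01 for SP600125 in A549 and B2B. The share of higher among calls over all genes then was 66.3% against 53.2% for SR11302 in A549, 61.1% against 50.7% for SR11302 in B2B, and 59.1% against 48.5% for SP600125 in B2B. A replicate block was tried although the labels do not say whether same-numbered libraries are paired. It gave 11 and 8 calls for SR11302 in A549 and B2B, 23 and 22 for SP600125, and 9 and 12 for the line differences. With 2 libraries a group, leaving out 1 leaves a lone library assumed to vary like the other groups, and transcripts under about 20 reads (CHAC1, CBS, NUPR1) carry wide counting error.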
